A study of Danio rerio with 8 samples.

Results

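Whole zebrafish (Danio rerio) embryos kept for 72 h in high salt were compared with embryos kept for 72 h in control medium. The comparison used 5 of the 8 libraries of a bulk RNA sequencing study, 2 from high salt and 3 from control, chosen by the treatment in their labels; the other 3 came from high glucose. All genes of the count table were in scope, 31953 in number, of which 20562 had enough counts to be tested. Libraries are named by the suffix of their column: control 1m, 2f and 2m, and salt 1m and 2m. What the suffix means, the salt concentration, the strain and the number of embryos per sample are not stated in the labels. The tissue in the labels is the whole embryo, and transcripts of muscle (ckma), liver (bhmt) and brain (ckbb) were all detected. Nothing in the labels says that samples came from separate clutches or dishes, so a p-value here covers the spread from sample to sample, which can be technical. In whole-embryo RNA, fewer cells of a type and less RNA per cell cannot be told apart.

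Cells placed in a saltier medium lose water and shrink. They regain volume by taking up salts through cotransporters and, more slowly, by collecting small organic molecules that do not disturb proteins, such as taurine, myo-inositol, betaine, glycerophosphocholine and neutral amino acids. Freshwater fish embryos also meet salt at their skin, where ionocytes pump ions and claudins and related junction proteins set the leak between cells. Hypertonic shock is known in other vertebrate cells to slow translation, to activate p38 kinases and AP-1 factors, and to alter chromatin.

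Total counts were 14.65 M and 14.88 M in the salt libraries and 15.83 M to 16.44 M in the controls. Levels are given as CPM, counts relative to library size with TMM scaling, and a change is a log2 ratio of salt to control ± its standard error, from edgeR's quasi-likelihood test on all 8 libraries (n = 2 and 3). A gene was called where its adjusted p over all tested genes was below 0.05. The first principal component, with 39.3% of the variance, placed salt 2m at 108.9, salt 1m at 29.7 and the other 6 libraries between -57.1 and -4.8. Control 1m stood apart from the other controls on the second component (33.1%), at 77.4, with salt 1m at 50.4.

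In high salt 605 genes rose and 496 fell, which is 2.94% and 2.41% of the tested genes and 5.35% together. The median change of the rises was 1.22 (log2) and that of the falls was 1.62 in size, and 140 rises and 164 falls were at least 4-fold. Against high glucose, in the same fit, 1017 genes (4.95%) differed. Scaling by library size alone turned the balance of the calls against control, with 400 rises and 504 falls, and shifted the median of all genes from -0.04 to -0.14. The numbers rested on few libraries: 50 genes were called without salt 2m, 164 without control 2f, 147 without control 2m and 352 without control 1m and salt 2m. Without salt 1m there were 2355 calls, and in a fit of the 5 control and salt libraries alone there were 72. Under these and all other alternatives, no called gene that could be tested changed its direction. The alternatives reuse all or most of the libraries that gave the calls, which favours this. A core of 43 genes, 31 rises and 12 falls, passed the threshold in all 15 alternative analyses.

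Several core genes fall into groups of known physiology. Rises included amino acid and osmolyte carriers (slc38a2, slc38a4, slc6a6a, slc22a16 and slc25a22), the taurine enzyme gene csad, the polyamine enzyme gene sat1a.1 and the AP-1 gene jund. Among the falls were 3 linker histone genes, both arrdc3 copies, a pair of monocarboxylate carrier genes, the O-GlcNAcase gene mgea5 and gpcpd1. Other core rises were antxr1c, of the anthrax toxin receptor family, which binds collagen, at 26.4, 28.1 and 28.4 CPM in control and 97 and 126 CPM in salt (2.01 ± 0.19), the transcription factor gene zfx (1.74 ± 0.21) and the kinase gene stk10 (1.54 ± 0.18). A further core fall was inpp4aa, a phosphoinositide phosphatase gene, at 22.8, 20.6 and 22.6 CPM and 4.48 and 4.15 CPM (-2.34 ± 0.24). The plot of the core genes by sample shows 34 of them that have an ordinary symbol.

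**Figure D1:**
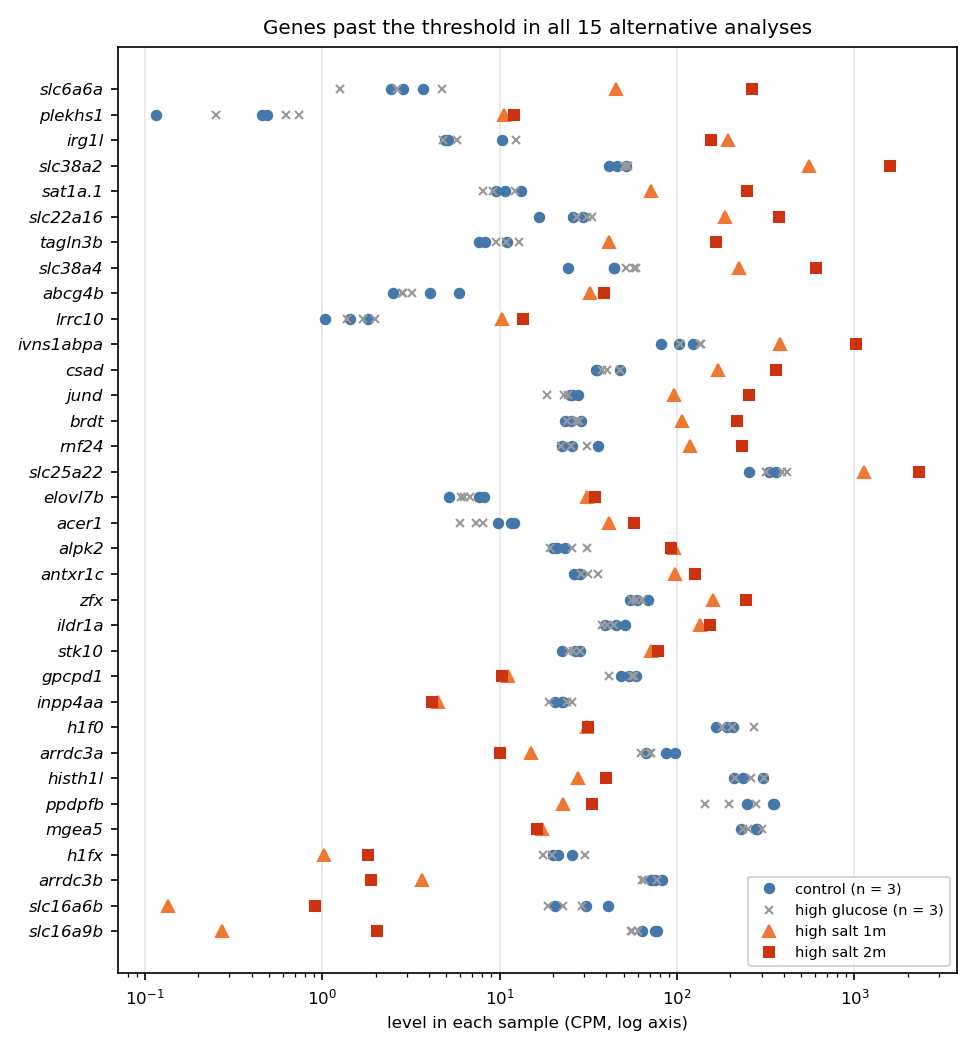
Level of each core gene in every sample, in CPM on a log axis; circles are the 3 controls, crosses the 3 high glucose samples, the triangle salt 1m and the square salt 2m. In every gene shown both salt samples lie outside the range of the controls, on the same side; slc38a2 stands at 552 and 1593 CPM against 41.5 to 51.7 CPM.

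Genes for handling organic osmolytes had the highest share of rises among the gene lists with at least 15 tested members. Of 19 tested genes for osmolyte uptake, synthesis and breakdown, 6 rose and 2 fell, 42.1% called against 5.35% of all tested genes. The neutral amino acid carrier slc38a2 stood at 45.7, 51.7 and 41.5 CPM in control 1m, 2f and 2m and at 552 and 1593 CPM in salt 1m and 2m (4.53 ± 0.38, adjusted p = 0.00195). Both salt libraries lay far above the controls, and salt 2m was the higher of the pair. Its relative slc38a4 had 24.3, 44.3 and 44 CPM in control and 224 and 606 CPM in salt (3.47 ± 0.4), and slc38a5b had 67.7, 74.6 and 61.8 CPM and 125 and 199 CPM (1.25 ± 0.22). They were the 3 called members among 15 tested genes that share their domain in the deposited table. This is 20% called, against 5.35% of all tested genes.

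Both genes of taurine synthesis from cysteine rose. Cysteine dioxygenase, which makes cysteine sulfinate and is encoded by cdo1, rose by 0.9 ± 0.18 from 56.4, 43.9 and 50.6 CPM to 87.2 and 101 CPM. The next enzyme gene, csad, rose by 2.75 ± 0.3 from 47.9, 35.6 and 34.9 CPM to 169.7 and 360.2 CPM. Both salt libraries lay above all controls for either gene, as they did in 18.8% of all tested genes. The carrier slc6a13, which moves GABA and taurine in mammals, rose by 1.33 ± 0.22 and was nearly equal in the salt pair at 21.2 and 22.1 CPM. A taurine carrier, slc6a6a, stood at 3.71, 2.87 and 2.44 CPM in control and 45.2 and 264 CPM in salt, a gap of 2.54 (log2) within the salt pair. Of the 29 tested genes of this sodium-coupled carrier family, 5 rose and 1 fell, 20.7% called against 5.35% of all tested genes.

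A pair of genes that break down osmolytes fell. Glycerophosphocholine is hydrolysed by the product of gpcpd1, which stood at 48.3, 53.6 and 58.5 CPM in control and 11.1 and 10.26 CPM in salt (-2.32 ± 0.22). The salt pair was nearly equal and well below all controls. The myo-inositol oxygenase gene miox fell by 4.17 ± 0.79 and had no count in salt 2m. Genes of the sorbitol and betaine routes did not pass: akr1b1, aldose reductase, changed by -0.23 ± 0.25, sord, sorbitol dehydrogenase, by 0.19 ± 0.33, chdh, choline dehydrogenase, by -0.23 ± 0.21 and bhmt, which uses betaine, by 0.17 ± 0.21. Without salt 2m 3 members of the list rose and 1 fell, and without control 1m and salt 2m 5 rose and 2 fell.

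Carriers of other organic ions moved both ways. The organic cation and carnitine carrier gene slc22a16 had 16.6, 29.4 and 26.1 CPM in control and 186 and 374 CPM in salt (3.55 ± 0.33). The mitochondrial glutamate carrier gene slc25a22 was among the most abundant rises, from 331, 256 and 361 CPM to 1128 and 2308 CPM (2.44 ± 0.3). The mitochondrial aspartate and glutamate carrier slc25a12 rose by 0.8 ± 0.2. In the opposite direction ucp2, an uncoupling protein gene, fell by 1.49 ± 0.34, from 161, 136 and 168 CPM to 79.7 and 30.6 CPM. The monocarboxylate carrier genes slc16a9b and slc16a6b dropped to 0.272 and 2.04 CPM and 0.136 and 0.906 CPM in the salt pair, from 74.8, 77.4 and 63.9 CPM and 20.5, 40.6 and 30.8 CPM. Over all 342 tested solute carriers, 21 rose and 8 fell, 8.48% called against 5.35% of all tested genes. Their median was 0.01, close to the -0.04 of all genes.

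Of 41 tested ionocyte pumps, exchangers and channels, 3 rose and 1 fell, 9.76% called against 5.35% of all tested genes, and the median of the list was -0.15. The sodium pump subunit gene atp1a1b rose by 1.41 ± 0.24, from 42.8, 51.3 and 44.3 CPM to 89.7 and 156 CPM, and the subunit gene atp1b1b fell by 1.3 ± 0.27, from 91.5, 87.7 and 79.9 CPM to 46.3 and 23.8 CPM. Each was outside the control range in both salt libraries. Of all tested genes 18.8% lay above all controls in both salt libraries and 20.6% below. Under the symbol slc12a2, the cotransporter that loads cells with sodium, potassium and chloride, the table holds 2 genes. They rose by 1.22 ± 0.21 and 1.13 ± 0.28, and how their shared reads were split is not known. The water and glycerol channel gene aqp3a fell by 1.81 ± 0.31, from 46.3, 68.2 and 94.4 CPM to 19.4 and 20.2 CPM. None of the 25 tested genes for ionocyte specification and hormones was called, nor any of 86 potassium channel genes, 55 sodium and calcium channel genes and 27 proton pump genes.

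ABC transporters were called in 8 of 44 tested genes, 6 up and 2 down, 18.2% against 5.35% of all tested genes. The sterol exporter gene abcg4b had 5.92, 2.5 and 4.07 CPM in control and 32.5 and 38.9 CPM in salt (3.1 ± 0.33). Both salt libraries lay above all controls, as in 18.8% of all tested genes. The lipid carrier gene abca12, which serves the skin barrier in mammals, rose by 1.52 ± 0.32, and abcf2a, of a subfamily without membrane domains, rose by 2.16 ± 0.27. Of 44 claudin and tight junction genes 4 rose and 1 fell, 11.4% called against 5.35% of all tested genes. The rises were cldnk (2.87 ± 0.53), the scaffold gene tjp3 (1.18 ± 0.27), cgna (0.93 ± 0.22) and marveld2b (0.95 ± 0.2), whose product sits where 3 cells meet, and cldnh fell by 1.1 ± 0.22. Another gene of such corners, ildr1a, belonged to the core and stood at 50.9, 39.2 and 45.5 CPM in control and 134 and 154 CPM in salt (1.67 ± 0.18). No claudin or junction gene of the list was called without salt 2m, when the list median was 0.29, as with all libraries.

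Genes that set the polyamine pool moved both ways. In the list of 20 tested polyamine and creatine genes 3 rose and 2 fell, 25% called against 5.35% of all tested genes. Ornithine decarboxylase, the enzyme that makes putrescine, is encoded by odc1, which stood at 329, 358 and 243 CPM in control and 110.0 and 87.8 CPM in salt (-1.65 ± 0.24). Antizyme marks this enzyme for destruction, and its gene oaz1b stood at 293, 241 and 221 CPM and 628 and 1659 CPM (2.18 ± 0.34). The inhibitor of antizyme, azin1b, which was outside the list and singled out after its values were seen, stood at 313, 256 and 224 CPM and 137 and 124 CPM (-1.02 ± 0.19). All 3 genes were fully separated between the groups. Over all tested genes both salt libraries lay above every control in 18.8% and below every control in 20.6%. Spermidine and spermine acetyltransferase, which tags polyamines for export or breakdown, is encoded by sat1a.1. That gene had 9.56, 10.7 and 13.1 CPM in control and 71.8 and 249 CPM in salt (3.85 ± 0.44) and was in the core. The spermine oxidase gene smox fell by 1.08 ± 0.22, and the synthase genes srm (0.15 ± 0.31) and sms (-0.25 ± 0.19) and the other antizyme copy oaz1a (-0.04 ± 0.27) were not called. Ornithine and arginine enzymes outside that list also rose: oat, ornithine aminotransferase, by 2.8 ± 0.37, from 5.27, 7.99 and 6.57 CPM to 28.7 and 63.5 CPM, and arg2, mitochondrial arginase, by 2.94 ± 0.52. The glutaminase gene glsb rose by 1.13 ± 0.25, whereas pah, phenylalanine hydroxylase, fell by 2.26 ± 0.28 against control and stood -0.64 ± 0.27 from high glucose, which was not a call.

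The fall with the lowest p of all genes was mgea5, which encodes the enzyme that removes O-GlcNAc, a sugar tag, from proteins. It stood at 229, 281 and 280.4 CPM in control and 17.3 and 16.2 CPM in salt (-3.97 ± 0.22, adjusted p = 0.000187). The salt pair agreed closely, far below the controls. Genes of the enzyme that adds the tag, ogt.1 and ogt.2, changed by -0.03 ± 0.25 and 0.01 ± 0.23 and were not called. Arrestin-domain genes, whose products draw membrane proteins into the cell, included arrdc3b (75.6, 82 and 71.7 CPM in control, 3.67 and 1.89 CPM in salt) and arrdc3a (97.7, 87.1 and 67 and 15 and 10 CPM), with changes of -4.77 ± 0.31 and -2.74 ± 0.26, both falls. Of the 7 tested genes of this family and of txnip, a brake on glucose uptake, 3 fell, txnipa among them (-2.15 ± 0.32), and arrdc1b rose (0.9 ± 0.22). That is 57.1% called, against 5.35% of all tested genes.

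**Figure D2:**
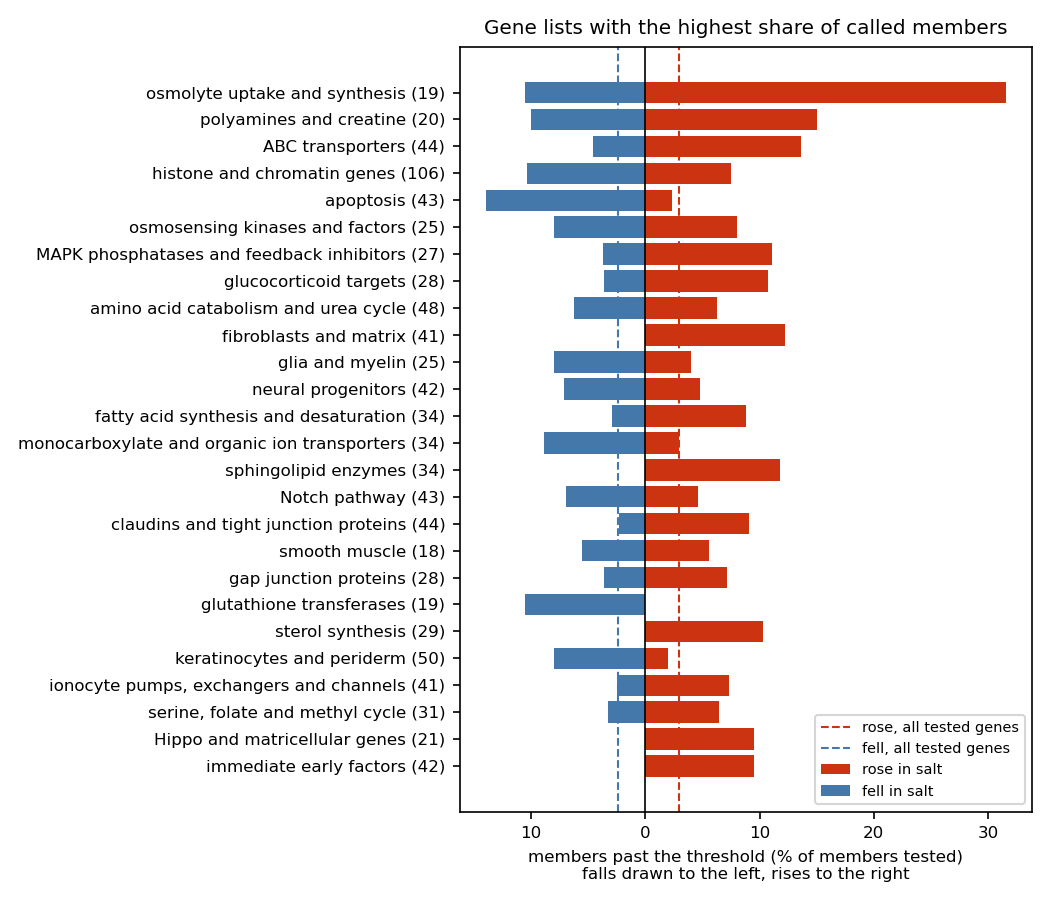
Share of tested members (number in brackets) that rose, drawn to the right, or fell, drawn to the left, in percent, for the 26 lists with at least 15 tested members and the highest share called; dashed lines mark the 2.94% and 2.41% of all tested genes. Osmolyte genes lead, with 6 rises and 2 falls among 19.

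Chromatin genes split by kind. Falls were mostly in genes of small structural proteins, and rises in genes of large enzymes and of proteins that read histone marks. Of 106 tested histone and chromatin genes, 8 rose and 11 fell, 17.9% called against 5.35% of all tested genes. All 3 linker histone genes that could be tested fell. Their proteins bind the DNA between nucleosomes and compact it. Of these h1f0 stood at 207, 165 and 192 CPM in control and 31 and 31.4 CPM in salt (-2.59 ± 0.23), histh1l at 307, 208 and 236 CPM and 27.6 and 39.8 CPM (-2.89 ± 0.28), and h1fx at 25.7, 20.1 and 21.3 CPM and 1.02 and 1.81 CPM (-3.98 ± 0.38). Each was separated by a wide gap, and all 3 were in the core. Against high glucose they were lower too, with changes of -2.81 ± 0.24, -2.95 ± 0.28 and -3.99 ± 0.38, all called.

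High mobility group genes encode abundant proteins that bend DNA or bind nucleosomes. Of 15 tested, 4 fell and none rose, with a median of -0.67 over the 15. This is 26.7%, against 2.41% of all tested genes that fell, in a class assembled after the values were seen. The most abundant fall with an ordinary symbol was hmgn2, at 2737, 2017 and 2756 CPM in control and 1169 and 1316 CPM in salt (-1.01 ± 0.22). Its relative hmgn7 fell by 1.0 ± 0.19, and hmgb3b fell by 1.12 ± 0.28. The gene hmgb3a fell by 1.4 ± 0.25 to an almost equal level in both salt libraries, 411 and 407 CPM, from 816, 1218 and 1211 CPM. Core histone genes fell in h2afx (-1.38 ± 0.22), a variant that marks DNA breaks, and hist2h3c (-1.54 ± 0.36). The remodeller gene smarca1 fell by 2.27 ± 0.37. A gene of the INO80 remodelling complex, ino80e, is listed as 2 neighbouring genes, which both fell (-3.48 ± 0.36 and -1.41 ± 0.25).

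Rises lay among enzymes that write or remove histone methylation. Of 36 tested genes with a SET domain, which carries methyltransferase activity, 6 rose and 1 fell, while the median of the 36 was -0.05. That is 19.4% called, against 5.35% of all tested genes. The 6 rises were kmt2a, kmt2ba, kmt2bb, nsd1a, setd2 and suv420h1. The H3K4 methyltransferase genes kmt2a, at 96.7, 122 and 137 CPM in control and 238 and 216 CPM in salt, and kmt2bb, at 86.9, 96.2 and 107 and 179 and 228 CPM, rose by 0.93 ± 0.2 and 1.08 ± 0.19. The H3K36 methyltransferase gene setd2 rose by 0.77 ± 0.17. Their relatives kmt2d (0.92 ± 0.16) and kmt2ca (0.88 ± 0.18), listed under other domains, rose too. Demethylase genes kdm5bb (1.08 ± 0.2), kdm5c (0.76 ± 0.18) and kdm2ba (1.02 ± 0.19) rose as well; the kdm5 products remove H3K4 methylation, the mark that the kmt2 products write. Of 35 tested remodellers with an SNF2 domain 6 rose and 1 fell, 20% called against 5.35% of all tested genes. The largest of these rises was ino80 (1.68 ± 0.21), from 45.8, 39.5 and 39.1 CPM to 102 and 163 CPM, and chd6, srcap, chd1, chd4a and chd7 rose by 0.77 to 1.06. These domain classes were picked after their values were seen.

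Bromodomain proteins read acetylated histones. Of 35 tested genes 7 rose and 1 fell, 22.9% called against 5.35% of all tested genes, with a median of 0.36 over the 35. The gene brdt, of the BET family and known for its role in the testis of mammals, stood at 28.6, 25.1 and 23.38 CPM in control and 107 and 218 CPM in salt (2.66 ± 0.27). It was in the core and is not among the 8 rises of the chromatin list. Without salt 2m none of the 8 rises of the chromatin list was called and the 3 linker histones still were. Without control 1m and salt 2m, 1 rose and 7 fell.

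**Figure D3:**
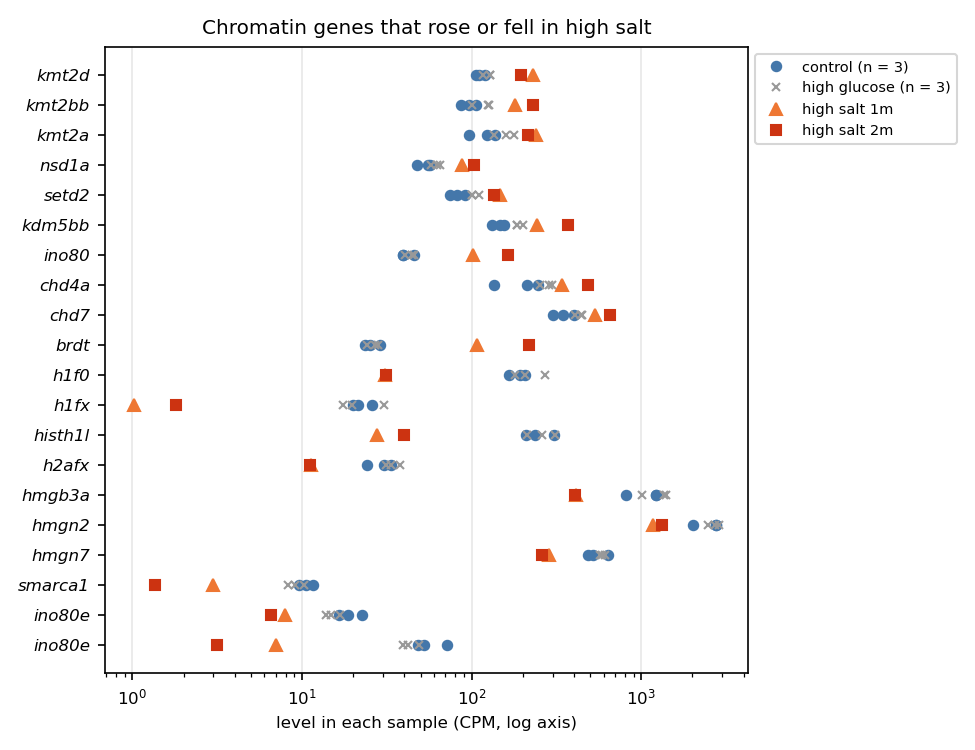
Level of chromatin genes in every sample, in CPM on a log axis; circles are the 3 controls, crosses the 3 high glucose samples, the triangle salt 1m and the square salt 2m. Enzyme and reader genes at the top are higher in both salt samples, and linker histone and high mobility group genes below are lower; h1f0 stands at 31.0 and 31.4 CPM against 165 to 207 CPM in control.

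Gene length moved with the direction of the calls. Protein-coding genes that rose had a median length of 3474 bases in the deposited table, those that fell 2145 and those not called 2350. Protein-coding genes were cut by length into 5 equal groups. From the shortest to the longest group, 1.01%, 1.51%, 2.70%, 4.06% and 5.80% rose and 2.67%, 2.69%, 3.02%, 2.04% and 1.54% fell. The median change of all genes in a group went from -0.29 in the shortest to 0.16 in the longest. Libraries of the same group differed with length too. In control 1m the median deviation from the control mean went from 0.17 in the shortest group to -0.14 in the longest, against -0.21 to 0.14 in salt 1m and -0.25 to 0.21 in salt 2m. The linker histone genes h1f0, histh1l and h1fx are 1331, 1394 and 2297 bases long, in the shortest group or the middle one, and kmt2a is 16810, in the longest. Without control 1m the medians of the shortest and longest groups were -0.15 and 0.10. The part of length in the chromatin and other results was not tested.

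**Figure D4:**
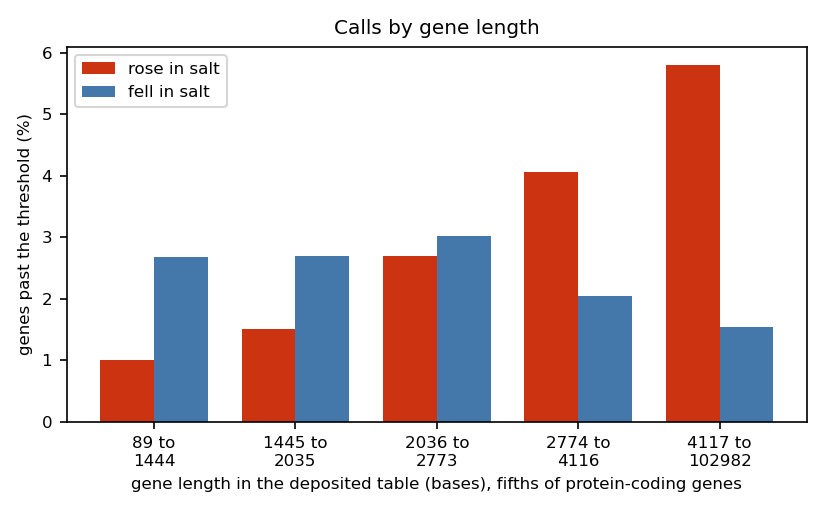
Percent of protein-coding genes that rose or fell in high salt, in 5 equal groups by gene length in the deposited table (bases). Rises go from 1.01% in the shortest group to 5.80% in the longest, and falls from 2.67% to 1.54%.

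A large set of zinc finger genes stood lower in salt, and how many passed the test varied with the libraries and the tool. The long arm of zebrafish chromosome 4 is known to be late replicating and rich in tandem copies of C2H2 zinc finger genes. Of 360 tested genes of this class on chromosome 4, 17 fell and none rose, 4.72% against 2.41% of all tested genes that fell. The median change was -1.41 against -0.04 for all genes. The falls numbered 97 without salt 1m, 0 without salt 2m, 7 without control 1m, 1 without control 2f and 0 without control 2m, and 70 with DESeq2 and 1 with limma voom; none rose in these settings. Both salt libraries lay below all controls for 237 of the 360, against 20.6% of all tested genes (18.8% lay above). The median deviation from the control mean was 0.26, -0.16 and -0.10 in control 1m, 2f and 2m, and -0.58 and -1.31 in salt 1m and 2m. In high glucose it was -0.02, -0.18 and -0.27. The shift was thus outside the spread of the other 6 libraries in both salt libraries and was larger in salt 2m.

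Both class and position went in part with the shift of the medians, as seen after the values were known. Along chromosome 4 (build GRCz11) the median change of protein-coding genes was 0.00, -0.02 and -0.16 in the first 3 windows of 10 Mb, and -1.41, -1.46, -1.55, -1.23 and -0.57 in the next 5. Zinc finger genes made up 22 of the 124 genes from 20 to 30 Mb. In the next 5 windows they were 67 of 83, 81 of 104, 64 of 75, 66 of 89 and 56 of 132. Above 28 Mb, 182 tested genes that are not of this class had a median of -0.47, and 3 of them fell. This 1.65% is below the 2.41% of all tested genes that fell. Zinc finger genes of other chromosomes, 284 in number, had a median of -0.70, with 3 rises and 10 falls. Their 4.58% called is below the 5.35% of all tested genes. The shift was absent from the 55 tested genes of the class, on any chromosome, that have an ordinary symbol. Their median was 0.03, with 2 rises and 1 fall, 5.45% called, near the share of all tested genes. For the 32 zinc finger genes of chromosome 4 with a mean of at least 5 CPM the median was -1.08 and 4 fell. Without salt 2m the median of the chromosome 4 genes was -0.89, without control 1m and salt 2m -0.64 and without salt 1m -2.44. The most abundant of those that fell was si:dkey-240b24.1, at 22.9, 8.6 and 14.5 CPM in control and 4.55 and 2.41 CPM in salt (-2.13 ± 0.45). Genes of this class are known to include similar tandem copies; their similarity was not measured here, and how shared reads were counted is not stated. Their median length, 2057 bases, is below the 2350 of genes without a call.

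Nuclear transport and translation genes rose in part. Both copies of exportin 1, which carries proteins and some RNAs out of the nucleus, rose: xpo1a stood at 140.0, 199 and 139 CPM in control and 476 and 1212 CPM in salt (2.4 ± 0.36), and xpo1b at 153, 180.0 and 135 and 456 and 955 CPM (2.18 ± 0.29). Import receptor genes tnpo2 (1.02 ± 0.18), ipo7 (0.86 ± 0.19) and ipo13 (1.09 ± 0.22) rose too, so that 5 of 26 tested receptors rose and none fell. That is 19.2%, against 2.94% of all tested genes that rose, in a class assembled after the values were seen. Of 75 translation factor genes 5 rose and 1 fell, 8% called against 5.35% of all tested genes. The elongation factor gene eef2b was the most abundant rise with an ordinary symbol, at 2400.4, 3432 and 2808 CPM in control and 4794 and 8052 CPM in salt (1.16 ± 0.27). The initiation factor genes eif4g2b (1.53 ± 0.28), eif5 (1.04 ± 0.22), eif4a1b (0.85 ± 0.2) and eif5b (0.81 ± 0.19) rose. The cap-binding repressor gene eif4e2 fell by 2.4 ± 0.42, from 18.2, 21.2 and 21.6 CPM to 5.84 and 1.81 CPM. Of 87 spliceosome and RNA-binding genes 3 rose, hnrnpub (1.15 ± 0.21), hnrnpua (0.85 ± 0.17) and prpf38b (0.98 ± 0.16), and none fell; this 3.45% is near the 2.94% of all tested genes, and the median was 0.02. Outside that list the RNA-binding gene sfpq, at 199, 277 and 278 CPM in control and 591 and 1166 CPM in salt, rose by 1.81 ± 0.28. None of 84 ribosomal protein genes, 69 ribosome biogenesis genes, 34 tRNA synthetase genes or 60 DNA replication genes was called; their medians were 0.35, 0.03, 0.18 and -0.15. Without salt 1m 5 ribosomal protein genes were called, all rises.

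Signalling genes rose in some branches. Of 42 immediate early factor genes 4 rose and none fell, 9.52% against 2.94% of all tested genes that rose. The median of the list was 0.75. In jund the controls lay at 27.8, 25.6 and 25 CPM and the salt pair at 96.4 and 256 CPM (2.75 ± 0.34). Other rises were junba (1.88 ± 0.43), klf6a (1.47 ± 0.34) and ier2 (1.55 ± 0.37). Salt 2m carried most of the list's shift: its median deviation was 1.17 in that library and 0.07 in salt 1m, next to a control range of -0.07 to 0.05. Without salt 1m 19 members rose, and without salt 2m 1 did. Of 25 osmosensing genes 2 rose and 2 fell, 16% called against 5.35% of all tested genes. The p38 kinase gene mapk14b rose by 1.2 ± 0.21, and sgk1, a kinase that raises ion transport, stood at 43.8, 66.7 and 47.9 CPM in control and 155 and 583 CPM in salt (2.81 ± 0.44). Its relative sgk2a fell by 1.25 ± 0.22, and lrrc8db, of the volume-regulated anion channel, fell by 2.75 ± 0.53. The tonicity factor genes nfat5a (0.82 ± 0.36) and nfat5b (1.02 ± 0.51) were not called.

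Genes of signalling inhibitors were among the calls. Dual-specificity phosphatases shut down MAP kinases. Against 5.35% of all tested genes, 14.8% of 27 such phosphatases and feedback genes were called, and 3 rose and 1 fell. These were dusp16 (1.02 ± 0.22), dusp8a (1.74 ± 0.33) and dusp7 (1.65 ± 0.4) upward and dusp22a (-1.85 ± 0.36) downward. Of 81 cytokine, chemokine and NF-kB genes 7 rose and none fell, 8.64% against 2.94% of all tested genes that rose. Among the 7 were 4 genes of I-kappa-B proteins, which hold NF-kB in the cytoplasm: nfkbiab (2.31 ± 0.37), nfkbiaa (1.99 ± 0.47), nfkbie (1.62 ± 0.34) and nfkbib (0.91 ± 0.22). The gene irg1l, related to the mammalian gene of itaconate synthesis, rose by 4.69 ± 0.45 and was higher in salt 1m than in salt 2m, 194 and 156 CPM against 5.14, 10.31 and 4.94 CPM in control. In the Notch pathway, target genes her4.1 (-2.78 ± 0.63) and 2 genes listed as her4.2 (-1.98 ± 0.48 and -1.69 ± 0.4) fell, and her8a rose by 1.42 ± 0.27. The her4 genes are tandem copies, and their single values are uncertain.

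Cell death and degradation genes held more falls than rises. Of 43 apoptosis genes 6 fell and 1 rose, 16.3% called against 5.35% of all tested genes. The falls include genes of the mitochondrial route: apaf1, at 37.2, 43 and 36.4 CPM in control and 19.8 and 16.3 CPM in salt (-1.1 ± 0.19), casp9 (-1.54 ± 0.32) and the executioner caspase gene casp3a (-0.92 ± 0.19). The initiator caspase gene casp8 fell by 1.26 ± 0.29 against control and stood 0.58 ± 0.28 from high glucose, not a call. The mitophagy receptor genes bnip3la, at 23.8, 34.9 and 30.9 and 7.95 and 8.07 CPM, and bnip3lb fell (-1.9 ± 0.27 and -0.85 ± 0.21). Of 60 autophagy and lysosome genes 4 fell and none rose: becn1, which starts autophagosome formation (-1.43 ± 0.31), atg10 (-2.57 ± 0.42), map1lc3a (-0.9 ± 0.22) and the cathepsin gene ctso (-1.3 ± 0.28). Both salt libraries lay below all controls in 23 of the 60, against 20.6% of all tested genes. The list had 6.67% called, all falls, against 2.41% of all tested genes that fell and 5.35% called in either direction. No apoptosis or autophagy gene was called without salt 2m, when the list medians were -0.33 and -0.27 against -0.32 and -0.23 with all libraries.

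Lipid genes rose in several pathways. Of 34 sphingolipid enzyme genes 4 rose and none fell: the ceramidase gene acer1, at 9.75, 11.7 and 12 CPM in control and 41.5 and 57.4 CPM in salt (2.15 ± 0.23), ugcg, which adds glucose to ceramide (0.97 ± 0.21), sgpp1a (0.88 ± 0.21) and sphk2 (0.9 ± 0.22). The 4 are 11.8% of the list, against 2.94% of all tested genes that rose, and the median of the 34 was -0.02. Fatty acid synthase, fasn, rose by 1.8 ± 0.4, and the elongase genes elovl7b, at 8.13, 5.19 and 7.62 and 31 and 34.5 CPM, and elovl1a by 2.23 ± 0.25 and 1.08 ± 0.26. Malic enzyme, me1, which supplies NADPH for such synthesis, fell by 2.73 ± 0.54. Of 29 sterol synthesis genes 3 rose, and the median of the list deviated by 1.06 in salt 2m and 0.20 in salt 1m, next to 0.17 in control 1m.

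Of 35 fatty acid oxidation and ketone body genes 1 rose and 2 fell, 8.57% called against 5.35% of all tested genes, with a median of 0.03. The falls were eci2, an isomerase of fatty acid oxidation (-1.02 ± 0.21), and pparaa, and the rise was ppargc1a. The receptor genes pparaa, at 8.58, 11.2 and 11.4 CPM in control and 1.49 and 1.89 CPM in salt, and rxrbb fell (-2.62 ± 0.39 and -2.52 ± 0.34); in mammals PPAR-alpha pairs with an RXR to switch on fatty acid oxidation. The coactivator gene ppargc1a rose by 1.34 ± 0.33. Peroxisome genes pex11a (-2.45 ± 0.38), pex7 (-1.44 ± 0.28) and pex5 (-1.21 ± 0.24) fell among 18 tested pex genes, none of which rose, with a median of -0.66. This is 16.7%, against 2.41% of all tested genes that fell. Of 21 aldehyde dehydrogenase genes 4 fell and none rose, namely aldh5a1 (-1.38 ± 0.21), aldh3a2a, aldh3a2b and aldh1a2, which makes retinoic acid (-0.95 ± 0.22). That is 19%, against the same 2.41%. The pex and aldehyde dehydrogenase families were picked for a high share called. Of 19 glutathione transferase genes gstr (-1.55 ± 0.27) and mgst1.1 (-1.37 ± 0.33) fell and none rose, 10.5% against 2.41%. Outside that list gsr, glutathione reductase, rose by 1.3 ± 0.28.

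Markers of several tissues gave no call. No member passed among 26 red cell genes, 23 heart genes, 30 cartilage genes, 27 liver genes, 27 neural crest genes, 32 pigment cell genes or 53 lens genes. Such an outcome was common: 33 of the 124 lists had no member called, and 5.35% of all tested genes were called. Of 62 neuronal genes 2 rose, dpysl5a (1.05 ± 0.22) and the tubulin gene tubb2 (1.5 ± 0.33). This 3.23% is near the 2.94% of all tested genes that rose. Several lists varied widely among the controls. Lens genes deviated by -1.80, 0.04 and 1.39 in control 1m, 2f and 2m and by -0.94 and 0.75 in salt 1m and 2m. Red cell genes deviated by -0.11, -1.30 and 1.31 in control and by 0.23 and -1.05 in salt. Neuronal genes stood at -0.01 in salt 1m and 0.99 in salt 2m, and their list median of 0.49 turned to -0.33 without control 1m and salt 2m. The fibroblast and collagen lists had medians of 0.39 and 0.52 that turned to -0.23 and -0.06 in the same setting. Without salt 2m no gene was called in the translation factor, osmosensing, phosphatase, ionocyte pump, fibroblast, Hox, Notch, sterol and keratinocyte lists, and 1 in each of the polyamine, ABC transporter, cytokine and sphingolipid lists. The part of salt 2m in these results was not tested. In collagen genes, where 1 of 53 was called, col5a3a stood at 28, 35.4 and 38 CPM in control and 81 and 98.4 CPM in salt (1.41 ± 0.21).

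**Figure D5:**
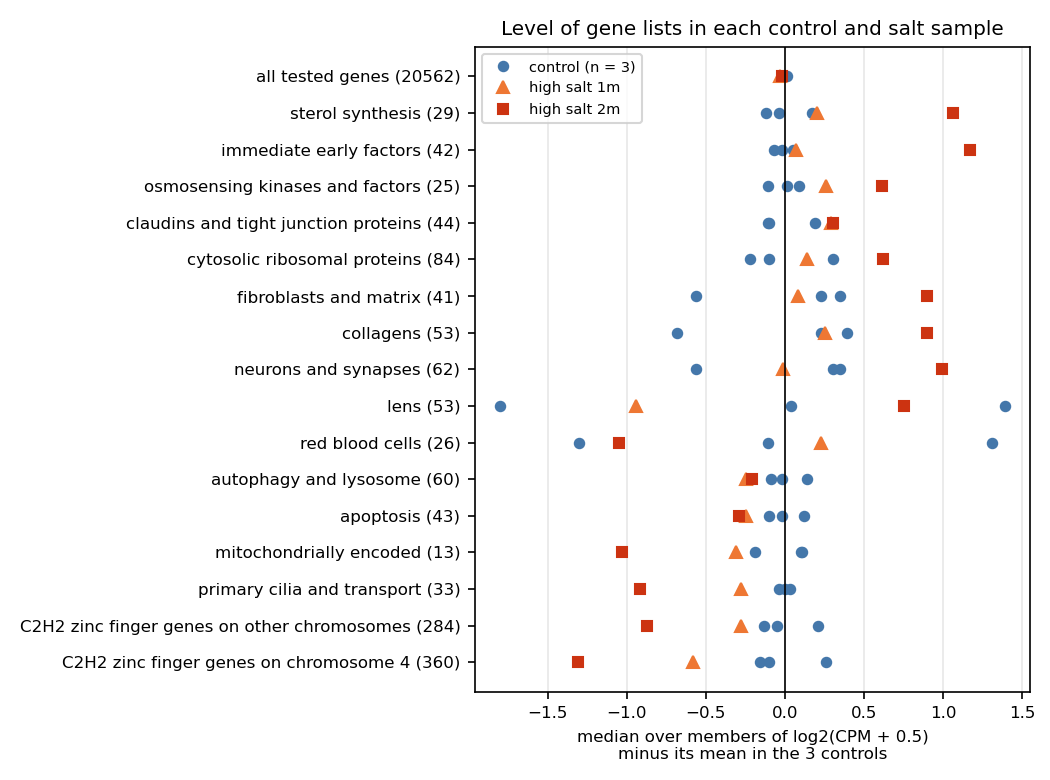
Median over the members of a list (number tested in brackets) of the log2 level in each sample minus its mean in the controls, for the 3 controls (circles), salt 1m (triangle) and salt 2m (square). Sterol, immediate early and neuronal genes are highest in salt 2m, chromosome 4 zinc finger genes are low in both salt samples, and lens and red cell genes spread more widely among the controls than between the salt samples.

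Calls among skin genes were mostly falls. Of 50 keratinocyte and periderm genes 4 fell and 1 rose, 10% called against 5.35% of all tested genes, and the list median was 0.02. The type I keratin gene cyt1 was abundant, at 1741, 1438 and 1767 CPM in control and 760.3 and 678 CPM in salt (-1.2 ± 0.2), and krt97 (-1.39 ± 0.19) and krt96 (-1.24 ± 0.31) fell. The secretory gene agr2, a disulfide isomerase of mucus cells, fell by 1.45 ± 0.21 to an equal level in the salt pair, 40 and 40.2 CPM. The keratin gene krt93 had no count in any control and 3.4 and 1.81 CPM in salt; with no control count no fold is given. The desmosome gene dsg2.1 fell by 0.75 ± 0.16. Of 41 fibroblast genes 5 rose and none fell, 12.2% against 2.94% of all tested genes that rose. They included the matrix genes tnc (1.34 ± 0.33) and fn1a (1.17 ± 0.28), and the collagen hydroxylase genes p4ha1b (1.66 ± 0.32) and p4ha2 (1.78 ± 0.29) rose. Among regional identity genes 3 of 49 Hox genes rose, hoxb6a, hoxc4a and hoxc6a, by 1.01 to 1.4. None fell, and this 6.12% stands against 2.94% of all tested genes that rose and 5.35% called in either direction.

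Of 96 tested actin regulators 2 rose and 2 fell, 4.17% called, which is near the 5.35% of all tested genes. Of 75 tested genes with a RhoGAP domain 7 rose and 1 fell, 10.7% called against 5.35%, in a class picked after its values were seen. The rises with the largest change were arhgap44, at 3.25, 3.54 and 5.06 CPM in control and 17.5 and 23.47 CPM in salt (2.37 ± 0.33), and arhgap6 (2.34 ± 0.3). The myosin light chain kinase gene mylk5 rose by 2.11 ± 0.36 and the nonmuscle myosin gene myh14 by 1.26 ± 0.19, while the myosin light chain gene myl12.1 fell by 0.73 ± 0.17, from 610.5, 550.5 and 585 CPM to 348 and 354 CPM. The transgelin genes split: tagln3b rose by 3.53 ± 0.48, from 11, 8.24 and 7.62 CPM to 41.2 and 166 CPM, and tagln2 fell by 0.91 ± 0.17. The beta-catenin gene ctnnb1, a link between cadherins and actin and the effector of Wnt signals, rose by 1.31 ± 0.23, from 478, 561 and 503 CPM to 964 and 1591 CPM. The Wnt coreceptor gene lrp6 rose by 0.8 ± 0.18. Of 69 tested Wnt pathway genes 2 rose and none fell. This 2.9% is near the 2.94% of all tested genes that rose.

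A cluster of neighbouring genes on chromosome 14 rose together; it was singled out after its values were seen. Within 11124782 to 11154988 (GRCz11) lie si:ch211-153b23.3, si:ch211-153b23.4 and si:ch211-153b23.5, all in the core. The first, with a YrdC-type domain in the deposited annotation, stood at 3.32, 4.76 and 2.21 CPM in control and 177 and 129 CPM in salt (5.48 ± 0.41), with the lowest adjusted p of all rises, 0.00101. The second, with the same domain, rose by 3.38 ± 0.31, and the third, with a DJ-1/PfpI domain, by 2.44 ± 0.25, from 55.9, 49.1 and 34.8 CPM to 232 and 276 CPM. All 3 were also higher than in high glucose. The first pair share a domain and lie next to each other, so reads common to both cannot be told apart.

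The salt libraries agreed in direction on every call, which the test itself favours, and differed in extent. Salt 2m was above salt 1m in 527 of the 605 rises, with a median log2 ratio of 0.44. It was below salt 1m in 366 of the 496 falls, with a median ratio of -0.32, and 130 falls went deeper in salt 1m. Over all tested genes the median ratio was 0.00 and 10215 of 20562 genes were higher in salt 2m. These are values after TMM scaling, which itself favours a median near 0. Scaled by library size alone, the median was -0.18 and 8211 genes were higher in salt 2m. With that scaling 458 of the rises were higher and 421 of the falls lower in salt 2m. With TMM scaling the pair lay within 2-fold of each other in 75.7% of the rises and 81.7% of the falls, against 76.4% of all tested genes. Among the more abundant genes, averaging 10 CPM or above, these shares were 80.2%, 90.4% and 89.4%. Abundant rises thus lay within 2-fold less often than all tested genes of that abundance. Scaled by library size alone, the shares of the abundant genes were 87.2%, 83.8% and 88.1%, lowest in the falls.

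Genes with the widest gap included carriers of osmolytes. Among rises of at least 2-fold, slc6a6a (45.2 and 264 CPM), slc5a3b (64.1 and 314), the mitochondrial arginase gene arg2 (73.2 and 359.6) and rcan1a (146 and 733), an inhibitor of calcineurin, were several-fold higher in salt 2m. Sizes of these rises are therefore uncertain, while both libraries exceeded every control. The narrowest gaps were in znf710a (68.6 and 68.5 CPM in salt, 22, 28.9 and 19.5 in control), the prohibitin gene phb2b (86.1 and 85.7 against 41.4, 19.6 and 39.1) and znf143b (65.6 and 64.5 against 25.7, 25.7 and 28.3). Their log2 changes were 1.55 ± 0.23, 1.37 ± 0.31 and 1.29 ± 0.18. Among falls, her4.1, ttc38 and slc16a9b had wide gaps and syngr1a (-1.11 ± 0.26), tmem151a (-1.36 ± 0.33) and pex11a narrow ones. In slc16a9b and h1fx the lower of the salt pair was salt 1m.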

How the data were processed

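The deposited table gives whole-number read counts per gene for 8 whole-embryo samples. The submitters' processing notes name the build GRCz11, the counter featureCounts 1.5.0-p3, the aligner HISAT2 2.0.5, edgeR 3.22.5, DESeq2 and StringTie 1.3.3b, with no order or settings; the strand setting and the treatment of reads shared between copies are not stated there. The extraction protocol in the labels describes an array workflow, whereas the deposited values are sequencing counts. Gene lengths, coordinates and domains are the deposited table's, and the coordinates were not checked against a genome. Of the 31953 gene IDs 26121 were in a table of reference symbols, and 1700 symbols were taken from it.

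Genes were filtered with filterByExpr, scaled by TMM and tested with edgeR 4.0.16's quasi-likelihood test (R 4.3.3) over all 8 samples with group as the only term, 5 residual degrees of freedom and Benjamini-Hochberg adjustment over 20562 genes at 0.05. The script was tested on simulated data. At the depths used 3 counts are 0.175 to 0.226 CPM, and the number of samples limits precision more than depth in abundant genes. Per-sample deviations use log2(CPM + 0.5). Alternatives were DESeq2 1.42.0, limma 3.58.1 with voom, other scalings and filters, and samples left out.

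The comparison, the members, the 124 gene lists and the settings were chosen with earlier results of these data known, and 32 genes caught by a list's name pattern without belonging to it were taken out by hand. Named genes are up to 6 called members of each list by lowest p, the 15 rises and 15 falls with the lowest p, the 8 most abundant of each direction, the 8 widest and 8 narrowest gaps between the salt samples, and families with a high share called. Other genes, and the domain, position and length classes, were singled out after their values were seen. A few results are not reported here.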

Additional observations from a re-analysis of the deposited data

How the results depend on the processing

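Against control (1101 calls, 605 rises and 496 falls), DESeq2 called 2834 genes (1435 and 1399), limma voom 718 (265 falls), the control and salt samples alone 72 (49 and 23), library size alone 400 rises, and the fit without control 1m and salt 2m 352 (190 and 162). Leaving out 1 sample at a time gave 50 to 2355 calls, 35 to 1215 rises and 15 to 1140 falls. A salt sample left alone is assumed there to vary like the samples of the other groups. The other scalings and filters stayed within 1.5 times. Against high glucose (1017 calls), DESeq2 called 2630 genes (1450 higher and 1180 lower) and voom 647 (204 lower), and leaving out 1 sample gave 65 to 2094 calls, 50 to 1167 higher and 15 to 927 lower. Of the falls, 366 were lower in salt 2m than in salt 1m, and 213 of those with a mean of at least 10 CPM. None of the called genes that could be tested changed direction in any of the 15 alternatives, which the reuse of the same libraries favours. The median of a list changed sign in 0 to 56 of 124 lists, and in 0 to 7 of the 29 with a median of at least 0.3 in size, most often without control 1m and salt 2m. The causes were not tested.

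No paired analysis was possible because the columns carry none of the replicate numbers of the labels; this concerns those numbers alone. The columns carry a suffix whose meaning is not given, and a fit with that suffix as a block could be run: 3907 genes were called, 1961 up and 1946 down, all 1101 calls among them. It also called 20 collagen genes up and 1 down, and 104 chromosome 4 zinc finger genes down. Of the tissue lists with no call it called 5 cartilage, 5 neural crest, 6 pigment cell and 3 lens genes up, and 1 each of the pigment cell, lens, heart and red cell genes down. Deviations from the group means correlated at 0.397 between control 1m and salt 1m and at 0.37 between control 2m and salt 2m; with 2 salt samples these deviations mirror each other, so they are not separate checks. Genes under a few CPM and similar copies are limited by depth and by how shared reads were counted.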
